A study of Mus musculus with 18 samples.

Results

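Retinas taken 7 days after an intravitreal injection of dexamethasone (DEX) were compared with retinas taken 7 days after an injection of triamcinolone (TAA) as 1 pair of compounds, with no vehicle array in the difference. The comparison rested on 6 of the 18 arrays of the series, 3 per drug, and on 18193 genes, read from the 34945 of 45101 probe sets that name exactly 1 gene. All mice were C57BL6/J males, 2 months old, kept under a light and dark cycle with free access to food. The DEX group, the TAA group and the BSS vehicle group each received the agent into the vitreous at day 0 and gave 3 arrays at day 7 and 3 at day 30. The label names the second drug only as TAA, and the series title gives triamcinolone. The labels state no dose for either drug, so matched doses cannot be assumed and a difference between the groups is a difference between the injections as given. The arrays are labelled as biological replicates, and the labels do not say whether retinas were pooled.

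Both drugs are synthetic fluorinated prednisolone-type glucocorticoids. They differ in the substituents of the D ring, where dexamethasone carries a methyl group and triamcinolone an oxygen substituent. Glucocorticoids bind the glucocorticoid receptor (Nr3c1), which is held by heat shock proteins and immunophilins until the ligand arrives and then moves to the nucleus, raises the transcription of target genes through receptor elements and represses inflammatory genes. In the retina such drugs are injected against macular oedema and inflammation, and receptor targets are active in Muller glia, astrocytes, vessels and microglia.

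The deposited values are log2 values from which each probe set's own median across the 18 arrays has been subtracted. They show differences between arrays and hold no expression level, so one gene's level was not set against another's and the presence of retinal marker genes could not be checked. The scale was taken as log2 with higher values for more RNA, which is how RMA reports, since no column header states it. The 3 DEX arrays correlated with each other across the probe sets (Pearson r 0.492, 0.324 and 0.214), and for the 3 TAA arrays the correlations lay near zero (r -0.144, -0.003 and 0.139). Across probe sets the second TAA array had the widest spread of the 9 arrays at day 7 (SD 0.347) and the third TAA array the narrowest (SD 0.147).

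1 gene passed the test between the drugs at day 7. Folh1 was lower in DEX than in TAA retinas by limma with Benjamini-Hochberg adjustment over 18193 genes, and no gene passed in the other direction. The called share was 0.0055% of the genes. The next smallest adjusted p was 0.190. At an unadjusted p under 0.05, 680 genes were higher and 497 lower in DEX. All 3 DEX arrays lay above all 3 TAA arrays in 1133 genes (6.23%) and below them in 993 genes (5.46%). The gene groups below are read against these shares. Their lists were chosen with earlier results of these data known, so an excess is a description and no independent evidence. An exact permutation test of 3 arrays against 3 cannot go below p = 0.1, so groups that do not overlap are a description. With array quality weights 747 genes were called (495 higher and 252 lower in DEX). The weights of the TAA arrays were 0.53, 0.26 and 4.15, so the TAA side of that fit rested mostly on the third array. The median difference of all genes was 0.00 on the log2 scale.

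Folh1 encodes glutamate carboxypeptidase II, the membrane enzyme that cleaves the neuropeptide N-acetylaspartylglutamate to release glutamate and that also trims folate. Its DEX arrays read -0.09, -0.26 and -0.12, its TAA arrays 1.60, 2.20 and 1.05 and its vehicle arrays -0.48, -0.31 and 0.03. Every TAA array lay above every DEX and vehicle array, and the DEX and vehicle values lay close together. The difference was -1.77 ± 0.26 (SE, n = 3 per group; 95% interval -2.32 to -1.23; limma adjusted p = 0.0472), a 3.42-fold lower reading after DEX. With 1 compared array left out at a time the difference stayed between -2.05 and -1.48, but the call was lost in 5 of the 6 cases: without any of the 3 DEX arrays, without the first TAA array or without the second TAA array. Without the third TAA array it was kept (limma adjusted p = 0.00404). It was also lost in 10 of the 12 cases in which an array of another group was left out, the exceptions being the second vehicle array and the second TAA array of day 30. The limma adjusted p was 0.765 with the 6 compared arrays alone, 0.300 with the 9 arrays of day 7 and 0.125 with the replicate number as a block. It was 0.0595 with robust eBayes and 0.0540 after subtracting array medians. Each of these settings ended the call. The limma adjusted p was between 0.00386 and 0.0425 with the other 4 settings tried on genes.

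The promoter of Folh1, the only called gene, is shown beside those of Fam107a and Sult1a1. These are targets on the glucocorticoid list whose arrays did not overlap and that hold 2 receptor half-sites, which are not adjacent to each other. Each line gives the 250 bases before a RefSeq transcription start of the GRCm38.p6 assembly, 5′ to 3′ on the coding strand, with half-sites (TGTTCT or its reverse complement AGAACA, which do not overlap each other here) in capitals. Folh1 starts on chromosome 7, minus strand, and its window is chr7:86775865-86776114. Fam107a has 3 RefSeq starts on the minus strand of chromosome 14, and the window shown, chr14:8309778-8310027, was picked for its number of half-sites. The window chr14:8309780-8310029 overlaps it and holds the same 2 half-sites, and the window chr14:8317608-8317857 holds 0. Sult1a1 lies on the minus strand of chromosome 7, with the window chr7:126676419-126676668.
Folh1: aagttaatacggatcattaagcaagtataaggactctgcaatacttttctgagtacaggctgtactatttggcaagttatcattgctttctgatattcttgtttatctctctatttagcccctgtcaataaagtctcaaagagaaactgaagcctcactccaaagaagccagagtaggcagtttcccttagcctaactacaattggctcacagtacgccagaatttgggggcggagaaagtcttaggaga
Fam107a: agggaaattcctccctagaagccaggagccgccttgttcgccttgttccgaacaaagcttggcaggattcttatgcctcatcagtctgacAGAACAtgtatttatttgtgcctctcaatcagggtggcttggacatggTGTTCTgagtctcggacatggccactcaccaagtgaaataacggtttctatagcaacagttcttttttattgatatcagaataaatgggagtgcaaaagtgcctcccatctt
Sult1a1: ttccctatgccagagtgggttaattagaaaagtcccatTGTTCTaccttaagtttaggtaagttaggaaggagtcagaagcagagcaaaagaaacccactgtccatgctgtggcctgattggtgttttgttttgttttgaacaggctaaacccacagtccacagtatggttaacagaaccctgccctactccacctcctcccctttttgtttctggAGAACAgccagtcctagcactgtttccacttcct
The Fam107a half-sites begin 160 and 112 bases before the start, and those of Sult1a1 212 and 34 bases before it. These letters do not occur in the Folh1 window. They are also absent from the windows of Arrdc2 and Fkbp5, whose DEX arrays likewise lay below all TAA arrays. At least 1 half-site occurred in 16.1% of 32851 RefSeq promoter windows of this length and 2 or more in 1.81%. Of the 40 glucocorticoid targets 32 had a window, and 7 of these (21.9%) held a half-site, against 14.7% of the 14452 tested genes with a window. A match in letters is not a bound site.

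Folh1 stood among other genes that read higher on the TAA arrays than on both DEX and vehicle arrays. The 15 genes of largest difference (unadjusted limma p under 0.01 with arrays that did not overlap) were, from the largest down, Selenbp1, Folh1, Saa3, Cdkn1a, Fam107a, Aldoc, Ip6k2, Prodh, Sult1a1, Arrdc2, Khdrbs1, Cnbp, Acacb, Far1 and F13a1. In all, 89 genes met that rule with DEX below TAA and 145 with DEX above. Among the 15, the 3 vehicle arrays lay nearer to the DEX mean than to the TAA mean in 14, 13 and 13 genes.

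Prodh, proline dehydrogenase, catalyses the first step of proline breakdown in mitochondria. It read 0.13, 0.12 and 0.01 after DEX and 1.41, 0.92 and 0.65 after TAA, against -0.04, 0.10 and 0.03 after vehicle. The TAA arrays were clear of the other 6, with a difference of -0.91 ± 0.16 (n = 3 per group; limma adjusted p = 0.19), the second smallest p of all genes.

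Selenbp1, a selenium-binding methanethiol oxidase, had the largest difference of these. Its DEX arrays read -0.02, 0.13 and -0.11 and its TAA arrays 4.83, 1.19 and 1.43, so the first TAA array stood far above the other TAA arrays. The difference was -2.48 ± 0.59 (n = 3 per group; limma adjusted p = 0.443) and -1.31 without that array. Both of its probe sets gave it (-2.51 and -2.48).

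Cdkn1a, the cell cycle inhibitor p21, had the same shape. DEX arrays read -0.56, -0.47 and 0.07, TAA arrays 3.04, 0.16 and 0.11 and vehicle arrays -0.17, -0.16 and 0.04. The groups were separated by little outside the first TAA array, since the difference of -1.43 ± 0.49 became -0.46 without it.

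Aldoc, the aldolase of the brain and of glia, read 0.23, 0.29 and 0.04 in DEX and 1.55, 1.80 and 0.50 in TAA retinas (difference -1.10 ± 0.29, n = 3 per group). The mean of the Aldoc probe sets gave -0.66. Far1, which reduces fatty acyl-CoA to the alcohols of ether lipids, read -0.36, -0.13 and -0.25 in DEX and 0.63, 0.61 and 0.09 in TAA retinas (difference -0.69 ± 0.17). Its 5 probe sets all pointed the same way, from -0.69 to -0.27. Ip6k2, an inositol hexakisphosphate kinase, differed by -0.96 ± 0.23, and Acacb, the mitochondrial acetyl-CoA carboxylase, by -0.69 ± 0.22. For Acacb the second TAA array (0.17, 1.35 and 0.34) stood above the others and the other of its 2 probe sets gave 0.03. Coagulation factor F13a1 was likewise highest on the second TAA array (0.56, 1.32 and 0.18), with a difference of -0.68 ± 0.20.

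**Figure D1:**
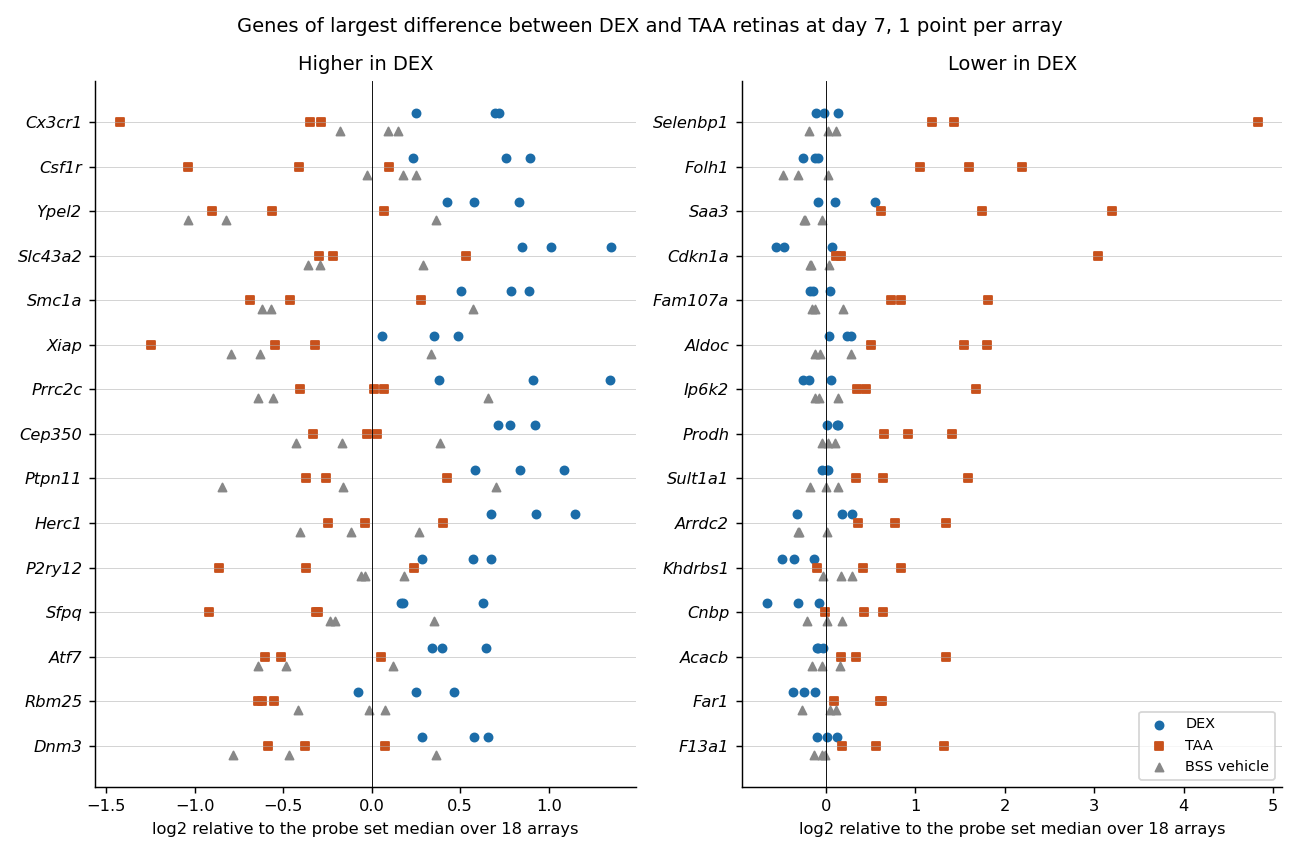
Values of the 15 genes of largest difference in each direction, as log2 relative to the probe set median on the horizontal axis, 1 point per array (DEX circles, TAA squares, BSS vehicle triangles). On the right the vehicle triangles mostly lie with the DEX circles, and the first TAA array carries Selenbp1 at 4.83 and Cdkn1a at 3.04.

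The 40 listed glucocorticoid target genes leaned toward TAA: 33 were lower and 7 higher in DEX, with a median difference of -0.20 against 0.00 over all genes. All 3 DEX arrays lay below all 3 TAA arrays in 10 of the 40 (25%, against 5.46% of all genes) and above them in 0 (against 6.23%). The mean of the list was 0.04, 0.07 and 0.02 on the DEX arrays, 0.48, 0.56 and 0.12 on the TAA arrays and -0.03, -0.08 and -0.03 on the vehicle arrays. The third TAA array was the nearest to the DEX arrays. Without the second TAA array 28 of the 40 were lower in DEX, with a median of -0.13. Without the third TAA array 17 of the 40 were apart below (42.5%, against 9.06% of all genes with 2 TAA arrays). No gene of the list passed the test over all genes. The list was chosen with earlier results of these data known, so its excess of separated genes is no independent evidence.

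Fam107a, a glucocorticoid-induced actin-binding protein, read -0.14, 0.05 and -0.18 after DEX and 1.82, 0.84 and 0.73 after TAA. Every TAA array lay above the 3 DEX and 3 vehicle arrays (0.19, -0.16 and -0.12), with a difference of -1.22 ± 0.24 (n = 3 per group; limma adjusted p = 0.443) and all 3 probe sets in that direction. Zbtb16, a zinc finger repressor and receptor target, read 0.15, -0.04 and 0.18 after DEX and 1.21, 0.61 and 0.49 after TAA (difference -0.67 ± 0.16). Sult1a1, a sulfotransferase of phenols, read -0.05, 0.01 and 0.02 and 1.58, 0.64 and 0.34 respectively, and Arrdc2, an arrestin domain protein, read 0.18, 0.29 and -0.32 and 0.77, 1.34 and 0.35. These 4 genes showed no overlap between the drugs, at differences of -1.22, -0.67, -0.86 and -0.77. Plin4, a lipid droplet coat protein, differed by -0.45 ± 0.15 with DEX arrays at -0.31, -0.28 and -0.17 and TAA arrays at 0.53, 0.03 and 0.01.

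For other classical targets the arrays overlapped or the differences were small. Tsc22d3, which encodes the anti-inflammatory protein GILZ, read 0.18, 0.15 and -0.17 after DEX and 0.17, 0.33 and 0.26 after TAA, a difference of -0.20 with a 95% interval of -0.49 to 0.09. Per1, the clock gene induced by the receptor, differed by -0.06 (-0.33 to 0.20), and Dusp1, a phosphatase of MAP kinases, by -0.13 (-0.60 to 0.34). For Sgk1, a kinase that regulates ion channels, the arrays did not overlap (-0.25, -0.22 and -0.23 against 0.00, -0.18 and 0.04) but the difference was small, at -0.19 (-0.42 to 0.04). Klf9, a zinc finger target of the receptor, overlapped between DEX arrays at -0.02, 0.17 and -0.25 and TAA arrays at 0.69, 1.61 and 0.02. Its difference of -0.80 ± 0.36 was -0.38 without the high second TAA array. An interval that holds zero does not show that the drugs acted alike on a gene.

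**Figure D2:**
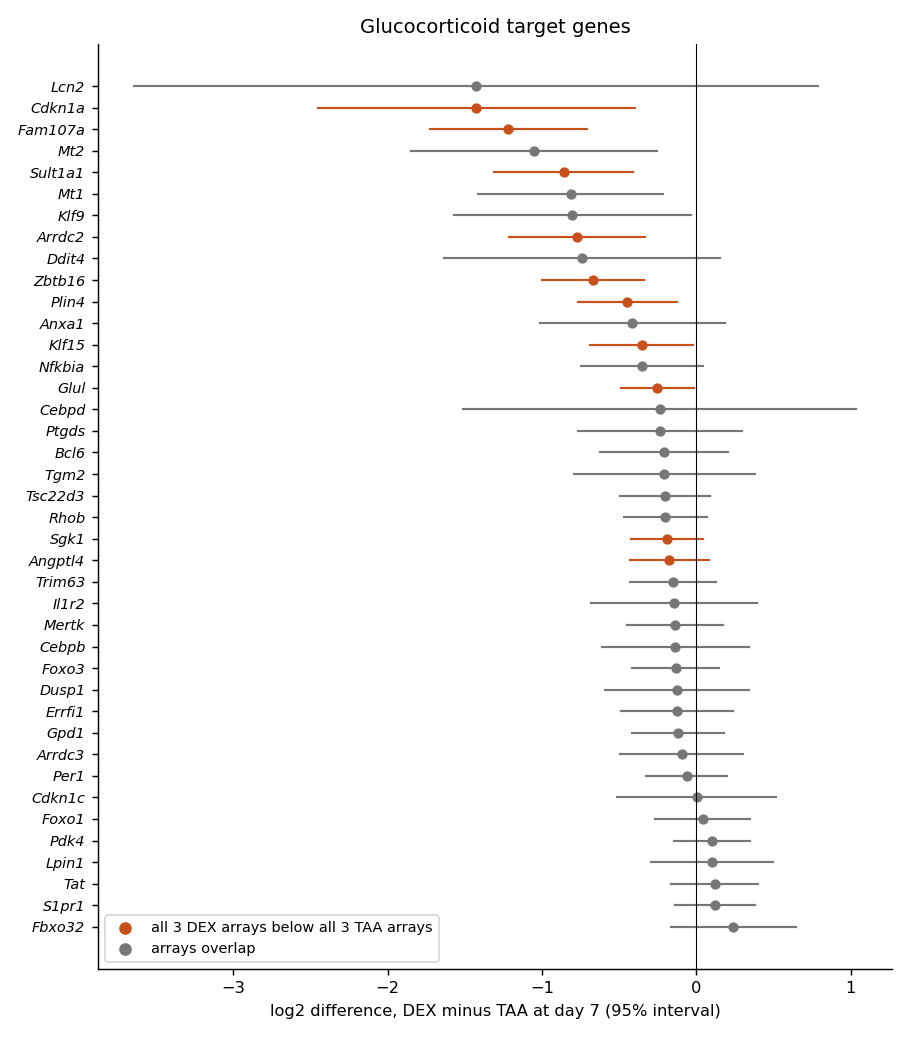
Log2 difference of each of the 40 glucocorticoid target genes, DEX minus TAA at day 7, with its 95% interval from limma. The 10 genes in orange had all DEX arrays below all TAA arrays, and 33 of the 40 points lie left of zero.

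The receptor and the proteins that hold, export or inactivate its ligand were measured in 17 of 21 listed genes, 9 lower and 8 higher in DEX, with a median of -0.01. Nr3c1 itself read -0.30, -0.26 and -0.10 in DEX and -0.22, -0.16 and -0.24 in TAA retinas, and both groups overlapped. Its difference was -0.01 with an interval of -0.30 to 0.28, and 0.06 as the mean of its 6 probe sets, which ran from -0.24 to 0.40. Fkbp5, the immunophilin induced by the receptor that lowers its affinity for ligand, read 0.04, 0.19 and 0.13 after DEX and 1.92, 0.33 and 0.33 after TAA. The groups were apart, but the difference of -0.74 ± 0.29 became -0.21 without the first TAA array. Hsp90aa1, the chaperone that holds the unbound receptor, differed by -0.23 ± 0.11, with DEX arrays at -0.20, -0.11 and -0.19 and TAA arrays at 0.16, 0.10 and -0.07. H6pd, which supplies the cofactor to the enzyme that regenerates active glucocorticoid, was higher in DEX by 0.27 ± 0.16.

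Metallothioneins, small zinc-binding proteins that glucocorticoids and metals induce, were high on 2 of the 3 TAA arrays. Mt2 read 0.06, 0.76 and 0.30 after DEX and 1.93, 2.08 and 0.26 after TAA (difference -1.05 ± 0.38, n = 3 per group). Mt1 read 0.16, 0.45 and 0.24 and 1.63, 1.36 and 0.31 (difference -0.81 ± 0.28), and the brain form Mt3 read 0.04, 0.00 and -0.03 and 1.01, 1.38 and -0.05 (difference -0.78 ± 0.23). The third TAA array lay among the DEX arrays for Mt1 and Mt2 and just below them for Mt3, so the groups overlapped. The zinc importer Slc39a8 followed the same order, at -0.07, 0.08 and -0.13 and 0.59, 1.07 and 0.00 (difference -0.60 ± 0.19), while its second probe set gave 0.03. Over the 14 listed genes of metallothioneins and zinc transport 9 were lower in DEX and the median was -0.07. The arrays lay apart with DEX below in 0 genes (against 5.46% of all genes) and with DEX above in 1 (7.14%, against 6.23%).

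Folh1 belongs to a list of 18 measured genes of glutamate and peptide handling, of which 9 were lower and 9 higher in DEX (median -0.02). Slc1a2, a glutamate transporter, lay on the other side from Folh1, with DEX arrays at 0.92, 0.81 and 0.28 and TAA arrays at 0.54, -0.46 and -0.27 (difference 0.73 ± 0.22), and the groups overlapped through the first TAA array. Glul, the glutamine synthetase of Muller glia and a receptor target, read -0.13, 0.00 and -0.19 after DEX and 0.17, 0.00 and 0.27 after TAA, apart by a margin below the printed digits on the second array of each group (difference -0.25 ± 0.11). Slc1a3, the glial glutamate transporter, differed by 0.45 ± 0.26, with DEX arrays at 0.72, -0.13 and 0.52 and TAA arrays at -0.05, 0.00 and -0.18.

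Genes of reactive gliosis, the response of Muller glia and astrocytes to injury, separated the TAA arrays from each other more than the drugs. The list mean was 0.54, 1.68 and -0.02 on the TAA arrays and 0.47, 0.51 and 0.31 on the DEX arrays, against -0.09, -0.41 and -0.14 on the vehicle arrays. Of 24 genes 16 were lower in DEX, with a median of -0.25. Without the second TAA array 17 of 24 were higher in DEX and the median was 0.21, so that array set the direction. The median was also above zero after quantile normalization (0.07).

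Saa3, an acute phase protein, was the gliosis gene whose groups did not overlap. It read 0.11, 0.55 and -0.08 after DEX and 1.74, 3.20 and 0.61 after TAA, a difference of -1.66 ± 0.39 (n = 3 per group; limma adjusted p = 0.443) that was -0.98 without the second TAA array. Serpina3n, a serine protease inhibitor of reactive glia, read 0.51, 0.95 and 0.48 in DEX, 1.87, 3.30 and 0.40 in TAA and -0.40, -2.00 and -0.97 in vehicle retinas. Its difference between the drugs was -1.21 with an interval of -2.85 to 0.43, and both drugs overlapped on the third TAA array. The glial filament genes Gfap and Vim differed by -0.45 ± 0.40 and -0.23 ± 0.29, the second turning to 0.01 after quantile normalization, and the protease inhibitor A2m by -1.05 ± 0.53. Gfap read 0.77, 0.41 and 0.35 on the DEX and 0.77, 2.11 and 0.01 on the TAA arrays, and without the second TAA array its difference was 0.12. Fgf2, a growth factor of stressed retina, differed the other way by 0.56 ± 0.25, with overlapping arrays.

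Genes of Muller glia as a cell type gave no common direction, 11 higher and 9 lower in DEX of 20 (median 0.03). Without the second TAA array 17 of 20 were higher in DEX (median 0.21), with 7 apart above (35%, against 12.8% of all genes with 2 TAA arrays), and without the first TAA array 15 of 20 were lower (median -0.10). Abca8a, a lipid transporter, was higher in DEX at 0.19, 0.18 and 0.11 against -0.42, 0.01 and 0.02 (difference 0.29 ± 0.11). The water channel Aqp4 differed by -0.35 (-0.92 to 0.22) and the potassium channel Kcnj10 by 0.06 (-0.31 to 0.43). Of the 7 astrocyte genes, Aldh1l1, a folate enzyme, read 0.37, 0.18 and 0.22 after DEX and 0.93, 1.27 and 0.24 after TAA, with a difference of -0.56 ± 0.23 in the direction of Aldoc. The mean of the Aldh1l1 probe sets gave only -0.20. Gja1, the gap junction protein connexin 43, differed by 0.73 with an interval of -0.58 to 2.03 and ranged from -0.87 to 1.87 over the vehicle arrays.

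Microglial genes showed the opposite lean, in whole retina, where fewer cells of a type and less RNA per cell cannot be told apart. Of 26 measured genes of microglia and macrophages 25 were higher in DEX and 1 lower, with a median difference of 0.38. In 6 of the 26 all DEX arrays lay above all TAA arrays (23.1%, against 6.23% of all genes), and in 0 all lay below (against 5.46%). The list mean was 0.54, 0.51 and 0.13 on the DEX arrays, -0.53, 0.61 and -0.27 on the TAA arrays and 0.03, -0.14 and 0.21 on the vehicle arrays. The first TAA array and the third were below the vehicle arrays and the second TAA array was above every DEX array. Without that array 22 of the 26 genes lay apart with DEX above, where 12.8% of all genes did so with 2 TAA arrays, and the median was 0.77. Without the first TAA array the median was 0.18, with 20 of 26 genes higher in DEX. This list too was chosen with earlier results of these data known.

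Cx3cr1, the fractalkine receptor of resting microglia, read 0.70, 0.72 and 0.25 after DEX, -1.43, -0.35 and -0.29 after TAA and 0.15, -0.18 and 0.09 after vehicle. Vehicle values lay between the drugs. The difference was 1.24 ± 0.29 (n = 3 per group; limma adjusted p = 0.443), and the other of its 2 probe sets gave -0.10. Csf1r, the receptor for the survival factors CSF1 and IL-34, read 0.76, 0.89 and 0.23 after DEX and -1.04, 0.09 and -0.41 after TAA (difference 1.08 ± 0.30), with all 3 probe sets above zero. P2ry12, the ADP receptor of surveying microglia, read 0.68, 0.57 and 0.29 and -0.87, 0.24 and -0.37 (difference 0.85 ± 0.21). Selplg, a selectin ligand, read 0.64, 0.35 and 0.24 and -0.32, -0.19 and -0.19 (difference 0.64 ± 0.19), and for all 4 genes the DEX arrays were above the TAA arrays.

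Tmem119, a microglial membrane protein, followed at 0.42, 0.15 and 0.08 after DEX and -0.30, -0.06 and -0.05 after TAA (difference 0.35 ± 0.13). Aif1, which encodes the microglial protein IBA1, read 0.42, 0.36 and 0.12 after DEX and overlapped with TAA, where the second array was high (-0.29, 0.55 and -0.23), with a difference of 0.29 (-0.16 to 0.74). The complement gene C1qa behaved likewise, at 0.42, 0.75 and 0.01 after DEX and -0.40, 1.15 and -0.23 after TAA (difference 0.22, -0.77 to 1.21).

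**Figure D3:**
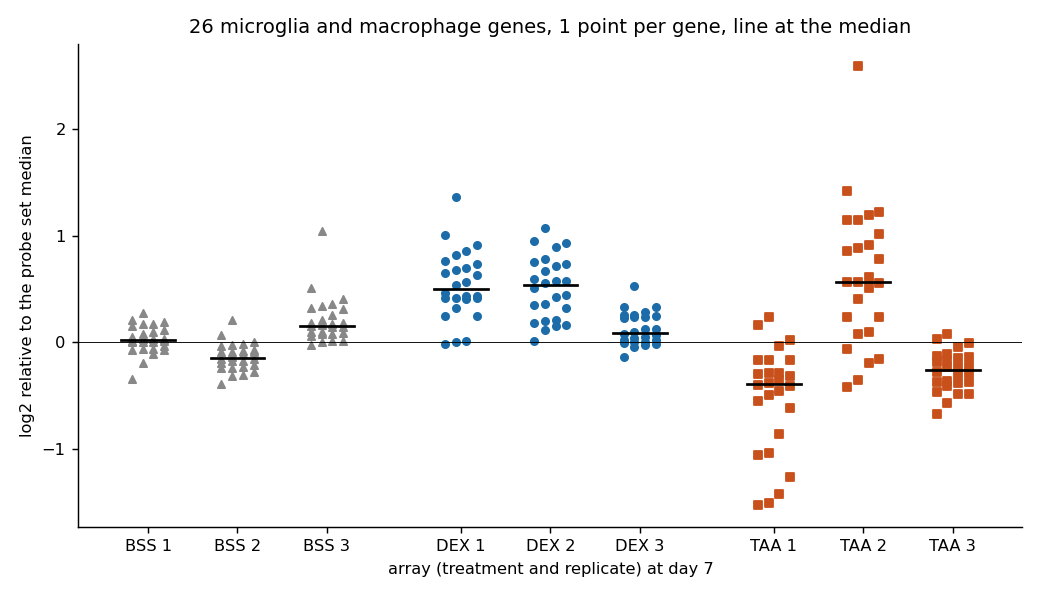
Log2 values of 26 microglia and macrophage genes relative to their probe set medians on each of the 9 arrays at day 7, with 1 point per gene and a black line at the median. The second TAA array lies at the height of the DEX arrays, and the first TAA array and the third lie below zero for most genes.

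Other inflammatory genes were less ordered. Of 23 genes that glucocorticoids repress 11 were higher and 12 lower in DEX (median 0.00). The chemokine Ccl5 was apart, at 0.19, 0.23 and 0.24 after DEX and -0.09, -0.49 and -0.40 after TAA (difference 0.55 ± 0.16), and Cxcl10 overlapped (difference 0.91 ± 0.38). Tnf lay lower in DEX on every array, by -0.20 ± 0.10. Interferon response and class I genes had means of 0.20, 0.56 and 0.67 on the DEX and -0.37, 1.08 and -0.06 on the TAA arrays, with 17 of 24 genes higher in DEX. The second TAA array was again the highest, and the first TAA array was the lowest. Without the first TAA array the median of this list turned from 0.21 to -0.11. Without the second TAA array it was 0.60, with 22 of 24 genes higher in DEX and 16 apart above (66.7%, against 12.8% of all genes with 2 TAA arrays). Stat2, a transducer of interferon signals, was the interferon gene of smallest p, with a difference of 0.40 ± 0.15. H2-Aa, a class II antigen presentation gene, read 0.46, 1.42 and 0.91 after DEX, -0.01, -0.19 and -0.53 after TAA and 1.54, -0.05 and 0.44 after vehicle (difference 1.18 ± 0.55). Of the 19 genes of other leukocytes 10 were higher in DEX, with list means between -0.08 and 0.09 on the 6 drug arrays.

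**Figure D4:**
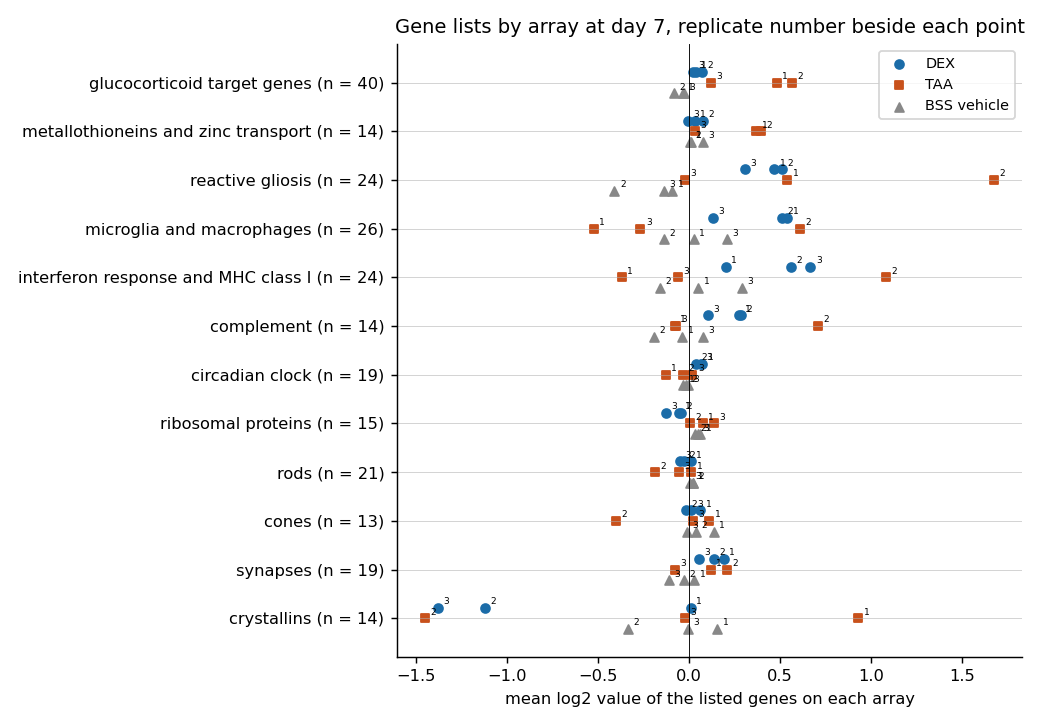
Mean log2 value of the listed genes on each array at day 7 for 12 lists, with the replicate number beside each point (DEX circles, TAA squares, BSS vehicle triangles). Glucocorticoid targets lie right of the DEX circles on all 3 TAA arrays, by the least on the third. The second TAA array is farthest right for gliosis, interferon and complement genes.

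The 15 genes of largest difference with DEX above TAA, by the same rule, included Cx3cr1, Csf1r and P2ry12 of the microglial list. The other 12 were Ypel2, Slc43a2, Smc1a, Xiap, Prrc2c, Cep350, Ptpn11, Herc1, Sfpq, Atf7, Rbm25 and Dnm3. Cep350, a centrosomal protein, had the smallest p of the 15, with DEX arrays at 0.92, 0.71 and 0.78, TAA arrays at 0.03, -0.03 and -0.33 and a difference of 0.91 ± 0.19 (n = 3 per group; limma adjusted p = 0.443). Slc43a2, a transporter of neutral amino acids, read 1.35, 1.01 and 0.85 after DEX and 0.53, -0.30 and -0.22 after TAA (difference 1.07 ± 0.23). The cohesin subunit Smc1a differed by 1.02 ± 0.26, the splicing factors Sfpq and Rbm25 by 0.84 ± 0.24 and 0.82 ± 0.21, and the phosphatase Ptpn11 by 0.90 ± 0.29.

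For these genes the vehicle arrays did not lie together. In the 15 genes of largest difference with DEX above, the first vehicle array was nearer the DEX mean in 12, the second in 1 and the third in 3. Ypel2 shows it, with vehicle arrays at 0.36, -1.04 and -0.82 beside DEX arrays at 0.83, 0.58 and 0.42 and TAA arrays at 0.07, -0.56 and -0.90. Xiap, an inhibitor of caspases, read 0.33, -0.79 and -0.63 on the vehicle, 0.49, 0.35 and 0.06 on the DEX and -0.32, -0.55 and -1.25 on the TAA arrays. Several of these genes also had probe sets that disagreed: the lowest of the 7 probe sets of Xiap gave -0.08, the 6 of Rbm25 ran from -0.15 to 0.82 and the 6 of Sfpq from -0.23 to 0.84. By contrast all 5 probe sets of Dnm3 were above zero (0.04 to 0.80).

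Among the 19 circadian clock genes, 12 were higher in DEX, and in 6 all DEX arrays lay above all TAA arrays (31.6%, against 6.23% of all genes). The PAR bZIP output genes Hlf, Dbp and Tef were among them. The list median of 0.15 was 0.07 without the first TAA array. Hlf read 0.30, 0.28 and 0.24 after DEX and 0.04, -0.22 and -0.23 after TAA (difference 0.41 ± 0.13). Dbp read 0.21, 0.13 and 0.23 and -0.45, -0.25 and 0.08 (difference 0.40 ± 0.14), and Tef 0.18, 0.13 and 0.45 and -0.38, -0.13 and -0.19 (difference 0.48 ± 0.20). All probe sets of these 3 genes were above zero. Nr1d1, the clock repressor REV-ERB alpha, was higher by 0.29 ± 0.12 with overlapping arrays. The hour at which retinas were taken is not in the labels. The clock list, like the others, was chosen with earlier results of these data known.

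In cholesterol synthesis 5 of 19 genes lay apart with DEX above (26.3%, against 6.23% of all genes). The list median of 0.09 was 0.03 without the first TAA array. Cyp51, lanosterol demethylase, read 0.26, 0.30 and 0.10 after DEX and 0.05, -0.38 and 0.01 after TAA (difference 0.32 ± 0.11). Dhcr7, the last enzyme of the pathway, differed by 0.33 ± 0.15 and the cyclase Lss by 0.45 ± 0.22. Hmgcs1, at the head of the pathway, differed the other way by -0.30 ± 0.12, with overlapping arrays. Ribosomal protein genes leaned to TAA, 12 of 15 lower in DEX and 6 of them apart (40%, against 5.46% of all genes), with a median of -0.14 that was -0.06 without the third TAA array. Rps6 read 0.02, 0.05 and -0.27 after DEX and 0.18, 0.16 and 0.59 after TAA (difference -0.38 ± 0.13), and Rpl4 read -0.02, -0.08 and -0.05 and 0.34, 0.25 and 0.26 (difference -0.33 ± 0.17). Ribosomal proteins have many near-identical pseudogenes that a probe set may also read, so these values are uncertain.

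Vessel genes did not share a direction, 10 higher and 9 lower in DEX of 19 (median 0.02). Cdh5, the cadherin of endothelial junctions, was apart, at 0.53, 0.17 and 0.28 after DEX and -0.10, -0.25 and -0.03 after TAA (difference 0.45 ± 0.11; limma adjusted p = 0.443), and its second probe set gave -0.14. Kdr, the main VEGF receptor, read 0.42, 0.47 and 0.49 after DEX and -0.62, 0.48 and -0.07 after TAA (difference 0.53 ± 0.18), overlapping through the second TAA array. Mfsd2a, the lipid transporter of the blood-retina barrier, lay the other way at -0.05, -0.05 and 0.06 and 0.81, 0.58 and -0.05 (difference -0.46 ± 0.17). Vegfa differed by 0.08, with an interval of -0.23 to 0.39. Angpt1, a ligand that steadies vessels, differed by -0.42 ± 0.17 and Flt1, a decoy VEGF receptor, by -0.41 ± 0.19. The mean of the Angpt1 probe sets gave -0.22. The sodium pump subunit Atp1b2 was higher in DEX by 0.43 ± 0.13 and apart on every array.

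Neuronal marker lists had medians near zero. The medians were 0.01 for 21 rod genes, 0.08 for 13 cone genes, -0.03 for 15 bipolar genes, 0.01 for 18 amacrine and horizontal genes and -0.07 for 19 ganglion cell genes. Single TAA arrays changed the direction of some lists. Without the third TAA array 12 of 13 cone genes were higher in DEX (median 0.12), and without the second 4 of 13 (median -0.05). Bipolar genes went from 5 to 11 of 15 higher in DEX without the second TAA array. Of the ganglion cell genes 14 of 19 were lower without the third (median -0.14) and 7 of 19 without the second (median 0.01). Rhodopsin was not analysed here, since no probe set kept names it. Gucy2e, a guanylate cyclase of photoreceptors, read 0.15, 0.31 and 0.02 after DEX and -0.06, -0.44 and -0.19 after TAA (difference 0.39 ± 0.12), and Grk1, rhodopsin kinase, 0.37, 0.30 and 0.30 and 0.29, -0.81 and -0.64 (difference 0.71 ± 0.24). Both were apart with DEX above. Apart above were 2 of 21 rod genes (9.52%) and 1 of 13 cone genes (7.69%), against 6.23% of all genes. Apart below were 1 rod gene (4.76%) and 1 cone gene (7.69%), against 5.46%. Of 19 synaptic genes, Vamp2 of the vesicle differed by 0.54 ± 0.19 and Snap25 of the plasma membrane by -0.69 ± 0.29, each without overlap. Of these 19 genes 1 was apart above (5.26%, against 6.23% of all genes) and 3 below (15.8%, against 5.46%). The list median was 0.10, with 12 higher and 7 lower in DEX.

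Lens and pigment epithelium can be carried over when a retina is dissected, and their markers varied between arrays of one drug. The 14 crystallin genes had means of 0.01, -1.12 and -1.38 on the DEX, 0.93, -1.45 and -0.02 on the TAA and 0.16, -0.34 and -0.01 on the vehicle arrays, and 14 of 14 were lower in DEX (median -0.59), each with an interval that reached zero. Without the first TAA array the median was -0.06 with 11 of 14 lower, and without the second TAA array it was -1.09 with 7 of 14 apart below (50%, against 12.8% of all genes with 2 TAA arrays). The first TAA array, which carried the high values of Selenbp1, Cdkn1a and Fkbp5, was also the highest in crystallins. Crygd read 0.34, -0.95 and -0.91 after DEX and 3.01, -1.16 and 0.25 after TAA. The 7 other lens genes had means of -0.11, -0.22 and -0.20 and 0.33, -0.23 and 0.01 on the DEX and TAA arrays. Means over the 19 pigment epithelium genes were -0.29, -0.45 and 0.13 and -0.26, 0.06 and -0.13. Of these genes 12 were lower and 7 higher in DEX (median -0.10). Apart below were 2 (10.5%, against 5.46% of all genes) and apart above 1 (5.26%, against 6.23%). Without the third DEX array 9 of 19 lay apart below (47.4%, against 10.2% of all genes with 2 DEX arrays), with a median of -0.24. Kcnj13, a potassium channel of that epithelium, read -0.37, -0.50 and 0.43 after DEX, -0.92, -0.81 and -0.59 after TAA and 0.13, 0.24 and 0.30 after vehicle (difference 0.63 ± 0.22). The part of carried-over tissue in the differences above was not tested.

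The same comparison was made on the 6 drug arrays of day 30, and the day 7 difference less the day 30 difference was tested in the same fit. No gene passed that test (0% of 18193; limma, smallest adjusted p = 0.110), while 2524 genes had an unadjusted p under 0.05. Without the third DEX array of day 30, 630 genes passed (209 with a higher and 421 with a lower difference at day 7), and without the third TAA array of day 7, 2 passed. Folh1 read 0.19, -0.03 and -0.29 after DEX and 0.07, 0.86 and 0.08 after TAA at day 30, where its difference was -0.38 ± 0.26. The change between days was -1.39 ± 0.37 (limma adjusted p = 0.206). Glucocorticoid targets had a median of -0.02 at day 30, with 18 of 40 higher in DEX, and microglial genes a median of -0.17, with 6 of 26 higher. Fam107a differed by 0.19 ± 0.24 at day 30 and Cx3cr1 by -0.24 ± 0.29, and their changes between days were -1.41 ± 0.34 and 1.48 ± 0.41 (limma adjusted p = 0.206 and 0.206). At day 30 the crystallin median was -1.92, with 3 of 14 genes higher in DEX. The list means at day 30 were -1.37, -0.13 and 0.46 on the DEX arrays and 0.14, 0.05 and 3.44 on the TAA arrays, so the third TAA array stood far above the other 5.

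The 6 genes of smallest p in that test had DEX above TAA at day 7 and below it at day 30. Cyb5d2, a haem-binding protein, differed by 0.44 ± 0.13 at day 7 and -0.73 ± 0.13 at day 30. Gspt1, the translation termination factor eRF3, read 0.32, 0.54 and 0.40 after DEX and -0.45, -0.21 and -0.25 after TAA at day 7 (difference 0.72 ± 0.15), then -0.10, -0.18 and -0.04 and 0.19, 0.79 and 0.34 at day 30 (difference -0.55 ± 0.15). Numa1, a spindle protein, Mpg, a DNA repair glycosylase, Grik5, a kainate receptor subunit, and Mthfsd differed by 0.20, 0.37, 0.42 and 0.26 at day 7.

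**Figure D5:**
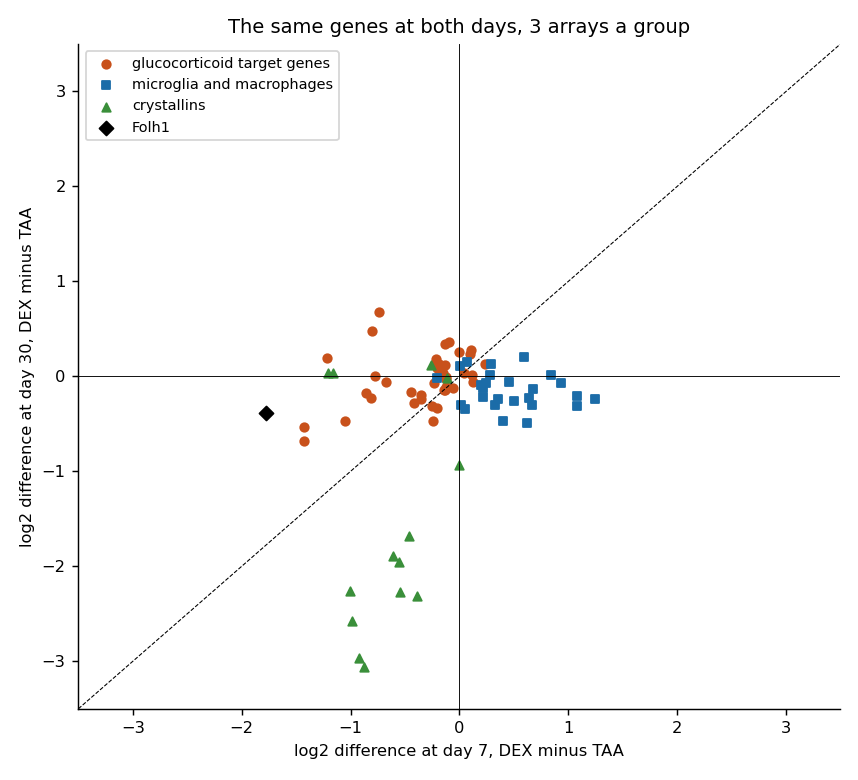
Log2 difference DEX minus TAA at day 7 on the horizontal axis against day 30 on the vertical axis for glucocorticoid targets, microglia and macrophage genes, crystallins and Folh1, with a dashed line of equality. Microglial squares lie right of zero at day 7, 1 excepted, and mostly below zero at day 30, and crystallin triangles reach -3.06 at day 30.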

How the data were processed

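RNA from retinas, extracted with a Qiagen RNeasy kit after storage in RNAlater, was amplified from 0.100 ug in 2 cycles to biotinylated cRNA and hybridised to Affymetrix arrays, per the labels' protocols. The authors deposited log2 values made with RMA, per the submitters' processing notes, and each of the 45101 probe sets has a median within 1e-06 of 0 over the 18 arrays, so the values were centred before deposit. The scale and direction are those of RMA and are not stated in the table. No scan date or slide is in the labels, so no batch was tested. Centring removes the level of a gene and leaves differences between arrays as they were.

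Of the probe sets, 34945 name 1 gene in the platform annotation, 932 several, 9160 none and 64 are controls. Where a gene had several, the one with the widest interquartile range across all 18 arrays was kept, without regard to group (9010 of 18193 genes had several). limma 3.58.1 in R 4.3.3 fitted 1 coefficient per group to all 18 arrays (12 residual degrees of freedom, prior 5.21), with eBayes and Benjamini-Hochberg adjustment at 0.05. Differences are DEX minus TAA on the log2 scale with their standard errors. The fit was tested on simulated data. Summaries and figures were made with Python 3.11.15, pandas 2.3.3, numpy 2.4.6 and matplotlib 3.10.9. Promoters came from RefSeq tables of GRCm38.p6.

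The 38 gene lists and the naming rule were chosen with earlier results of these data known, so no list is independent evidence. Named were called genes, then up to 15 genes per direction by size among those at an unadjusted p under 0.01 with groups that do not overlap, 4 of each list by p, a set of classical targets and cell markers, and 6 genes of the test between days. Clone symbols, 13 in all, were counted and not named. Of 707 listed genes 638 were measured, 3 under an older symbol. Alternatives were the arrays in the fit, the probe set rule, a filter on variability, normalization, array quality weights, robust eBayes, a replicate block and leaving out arrays. Replicates are labelled biological, with no animal named for each array.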

Additional observations from a re-analysis of the deposited data

How the results depend on the processing

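The count of 1 gene called between the drugs at day 7 was 0 with limma on the 6 compared arrays alone, on the 9 arrays of day 7, on every probe set, after subtracting array medians and with robust eBayes. It was 2 after quantile normalization, 747 with array quality weights (495 higher, 252 lower), and 1 with the mean of probe sets or the 9096 genes of widest interquartile range. With the replicate number as a replicate block it was 0, with Folh1 at an adjusted p of 0.125, and the count between the days went from 0 to 1. Same-numbered DEX and TAA arrays correlated at 0.071, 0.257 and 0.138 in their deviations from group means. Differently numbered arrays correlated between -0.268 and 0.189. The first and second DEX arrays correlated best with the TAA array of their own number, the third with the first TAA array (0.189). No animal is named for each array, so whether the numbers pair arrays is not known, and the main fit had no block. Leaving out arrays gave counts of 0 to 5 at day 7, with 5 without the third TAA array. The other 12 arrays, left out after seeing the data, gave 0 to 1. The count between the days was 0 to 630 in this way and 817 with array quality weights (449 higher, 368 lower). Groups did not overlap in 2126 genes, and in 1063 (6.66% above, 5.02% below) among those 9096, a set of fewer genes. The list counts without 1 array were also chosen after seeing the data.

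The difference of Gfap turned to 0.35 and that of Vim to 0.26 with array quality weights. Vim was 0.0086 after quantile normalization, Nr3c1 was 0.0558 as the mean of its probe sets and Hspa5 was 0.0745 with array quality weights. The cause was not tested. Without 1 array the ranges crossed zero for Aqp4 (-0.70 to 0.10), C1qa (-0.0667 to 0.71), Dusp1 (-0.35 to 0.0643), Gfap (-0.93 to 0.12), Kcnj10 (-0.10 to 0.28), Nr3c1 (-0.0664 to 0.0300), Per1 (-0.10 to 0.0055) and Vim (-0.52 to 0.16). With 3 arrays a group, the number of arrays limits the precision, and signal over background cannot be judged from centred values.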

Other observations

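Other gene groups showed smaller or mixed differences between the drugs at day 7. Stress genes read higher on some TAA arrays: 10 of 13 heat shock genes were lower in DEX (median -0.11). The arrays lay apart with DEX below in 1 (7.69%, against 5.46% of all genes) and with DEX above in 1 (7.69%, against 6.23%). Leaving out the second TAA array gave 7 lower (median -0.06). Hspa5, the chaperone of the endoplasmic reticulum, read -0.09, -0.04 and -0.29 after DEX and 0.37, 0.97 and -0.34 after TAA, so the third TAA array lay with the DEX arrays. Of 21 immediate early genes 13 were lower in DEX (median -0.05), but without the second TAA array 14 were higher (median 0.06). Egr1, a zinc finger factor induced by activity, read -0.59, 0.56 and -0.45 after DEX and 0.62, 0.49 and 0.80 after TAA (difference -0.80 ± 0.28), and the second DEX array overlapped the TAA arrays. Growth arrest genes had a median of -0.03, and Sesn2, a stress-induced inhibitor of mTORC1, was apart with DEX above (difference 0.52 ± 0.16), while Cdkn1a lay on the other side. Of the 18 genes measured in this list 3 were apart above (16.7%, against 6.23% of all genes) and 1 below (5.56%, against 5.46%).

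In energy metabolism, 4 of 22 respiratory chain genes (18.2%, against 5.46% of all genes) were apart with DEX below. Apart with DEX above was 1 of the 22 (4.55%, against 6.23%), and the list median was -0.02. Leaving out the third TAA array put 6 of the 22 apart above (27.3%, against 12.1% of all genes in that setting). It left 4 apart below (18.2%, against 9.06%), with 15 of 22 higher in DEX and a median of 0.03. Without the first TAA array 7 were apart below (31.8%, against 13.2%), and without the second 6 (27.3%, against 12.8%). Atp5o, a subunit of ATP synthase, read -0.19, -0.06 and -0.44 after DEX and 0.03, 0.41 and 0.27 after TAA (difference -0.47 ± 0.17). Glucose and lipid genes had a median of -0.02 over 25 genes, with 3 apart below (12%, against 5.46% of all genes). Cpt1a, which admits fatty acids to mitochondria, was among these (difference -0.54 ± 0.23), and its 3 probe sets ran from -0.54 to 0.35. Cell cycle genes had a median of -0.01 (17 genes) and cell death genes 0.01 (16 genes).

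Around the vessels, 9 of 11 genes of pericytes and smooth muscle were higher in DEX (median 0.07). The groups were apart in 0 of the 11, against 6.23% above and 5.46% below over all genes. With the second TAA array left out, 6 were higher (median 0.0049). Rgs5, a pericyte marker, read 0.54, 0.59 and 0.39 after DEX and 0.09, 0.58 and -0.16 after TAA. Extracellular matrix genes had a median of 0.07 over 24 genes, with 3 apart above (12.5%, against 6.23% of all genes). Col18a1, a basement membrane collagen, was one of them (difference 0.63 ± 0.29). The median was 0.10 for 18 angiogenic factors, 0.00 for 13 genes of water and ion transport, 0.09 for 14 complement genes, -0.08 for 11 genes of cornea, iris and ciliary body and 0.07 for 3 erythrocyte genes. In water and ion transport 3 of the 13 genes were apart above (23.1%, against 6.23% of all genes) and 1 below (7.69%, against 5.46%). No gene of these lists passed the limma test over all genes.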
